A study of Mus musculus with 30 samples.

Results

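The regions described here are 3801 stretches of chromatin marked by H3K9me3 that were called in all 6 ChIP-seq libraries of the study, were shorter than 30 kb and lay in protein-coding genes. H3K9me3 is trimethylation of lysine 9 on histone H3. Called regions of the 6 libraries were merged on chromosomes 1 to 19 where they shared at least 1 bp, which gave 44431 merged regions, and 17339 of these held a called region from every library. Of these, 16627 were under 30 kb, and 3801 of them overlapped the body of a protein-coding gene in the GRCm38 annotation. Genes named Zfp, Olfr, Vmn1r or Vmn2r plus a number did not count as hosts. The 3801 regions, called members below, lay in 2393 host genes, or 12.7% of the 18821 coding genes outside those families. The calls in the 6 libraries and the length chose the members, so neither is a result.

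H3K9me3 is written by the methyltransferases SETDB1, SUV39H1 and SUV39H2 and is removed by demethylases of the KDM4 family. It marks heterochromatin, which HP1 proteins bind, and in embryonic stem cells it is best known for silencing transposable elements through zinc finger proteins, TRIM28 and SETDB1. At imprinted genes, of which only the maternal or the paternal copy is active, it marks the DNA-methylated allele of the imprinting control region.

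The study concerns ETV2 (ER71), an ETS-family regulator without which early vessels and blood do not form, and KDM4A. All libraries were labelled as mouse embryonic stem cells. H3K9me3 was mapped in 3 doxycycline-treated (DOX) libraries, titled EB-DOX-D2, EB-DOX-D3 and EB-Er71-Flag-DOX-D2 and numbered DOX 1 to 3 here, and in 3 untreated control libraries, and the labels name no cell line for them. RNA was sequenced from other samples, in 6 groups of 3 libraries. These were the iETV2 line, in which DOX is given to induce Etv2, without (Control) and with DOX; the iETV2-KDM4A (H188A) line, called the H188A line here, without and with DOX; and cells of the genotypes Control and KDM4A/4C DKO. No source used here gives the promoter of the inducible gene, the parent of each line, the number of clones or the DOX dose. Nothing says that replicate libraries came from separate cultures, so p-values measure the spread between these libraries.

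RNA libraries held 40334911 to 68970038 counts. Called regions in a ChIP library covered 152 to 207 Mb, and the median ChIP count of a member ran from 208 to 353. Some facts of the RNA libraries touch results below. In the libraries labelled KDM4A/4C DKO, Kdm4a was at 42.9, 46.9 and 42.0 counts per 1000000 counts of the library (CPM) against 53.9, 54.4 and 55.7 in their controls, and Kdm4c was at 48.0, 42.7 and 46.0 CPM against 30.2, 32.2 and 29.6. By edgeR's quasi-likelihood test, Kdm4a fell by 0.44 ± 0.05 (SE) on the log2 scale and Kdm4c rose by 0.45 ± 0.06. Kdm4c was thus higher in the libraries with the knockout label, and a count over a whole gene does not show a frameshift or a lost exon. The controls and the libraries labelled DKO also differed in cell type markers. The summed level of 22 pluripotency markers was 1527 to 1536 CPM in these controls and 4935 to 4959 CPM in the libraries labelled DKO, while 20 hematopoietic markers summed to 1820 to 1900 CPM and to 122 to 127 CPM. The defining pluripotency marker Pou5f1 was at 22.3, 23.3 and 22.9 CPM in these controls, against 383, 377 and 349 CPM, so it was low in these controls although they carry the stem cell label.

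Of the hosts in the imprinted and germline gene lists, 12 had their start site inside a member. Starts were taken in order of the member's enrichment, a centred log2 ratio of ChIP to input defined below. Over the 6 that are printed it ran from 0.918 (Nnat) to -0.146 (Mest). The median member had -0.014, so Nap1l5 (-0.046) and Mest were below it. The sequences just upstream of these 6 starts are shown for the kind of promoter that lay in a member. Each is the 250 bases before the start in the gene's own 5′ to 3′ direction, from RefSeq promoters of GRCm38.p6, and windows inside the host's own annotated body were passed over. Capitals mark matches, on either strand, to any of 3 motifs. CACGTG is the E-box that MYC, MAX and MGA bind. TCCCGC is a core that E2F6 binds. TGCCGC is the core bound by ZFP57, a zinc finger protein of imprinting control regions. No matches overlapped in these windows. Nnat, a membrane proteolipid expressed from the paternal allele, starts at chr2:157559828-157560077 (plus strand). Plagl1, a zinc finger factor expressed from the paternal allele, is at chr10:13090582-13090831 (plus). Igf2, the fetal growth factor, is at chr7:142666817-142667066 (minus). Dazl, an RNA-binding protein of germ cells, is at chr17:50293621-50293870 (minus). Nap1l5, an imprinted gene inside Herc3, is at chr6:58907127-58907376 (minus). Mest, a paternally expressed hydrolase-like protein, is at chr6:30733256-30733505 (plus).
Nnat: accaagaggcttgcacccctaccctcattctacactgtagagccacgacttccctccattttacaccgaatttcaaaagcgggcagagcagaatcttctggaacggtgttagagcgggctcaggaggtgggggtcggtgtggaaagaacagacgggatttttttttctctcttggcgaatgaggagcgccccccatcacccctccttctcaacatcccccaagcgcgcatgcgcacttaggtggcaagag
Plagl1: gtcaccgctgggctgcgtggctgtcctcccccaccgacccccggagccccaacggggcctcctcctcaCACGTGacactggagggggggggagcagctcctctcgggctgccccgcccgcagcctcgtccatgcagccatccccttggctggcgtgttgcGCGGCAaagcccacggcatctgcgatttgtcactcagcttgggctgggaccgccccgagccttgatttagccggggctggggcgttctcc
Igf2: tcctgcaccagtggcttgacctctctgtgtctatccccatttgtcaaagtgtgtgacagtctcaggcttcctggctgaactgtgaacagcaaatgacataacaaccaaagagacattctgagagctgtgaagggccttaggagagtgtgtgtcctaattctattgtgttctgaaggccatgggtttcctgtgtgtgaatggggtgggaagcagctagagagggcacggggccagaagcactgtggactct
Dazl: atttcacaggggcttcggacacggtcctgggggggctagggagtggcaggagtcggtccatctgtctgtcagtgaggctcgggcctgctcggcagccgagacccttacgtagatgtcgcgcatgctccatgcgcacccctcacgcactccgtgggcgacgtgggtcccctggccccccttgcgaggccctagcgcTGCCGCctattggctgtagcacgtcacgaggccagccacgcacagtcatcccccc
Nap1l5: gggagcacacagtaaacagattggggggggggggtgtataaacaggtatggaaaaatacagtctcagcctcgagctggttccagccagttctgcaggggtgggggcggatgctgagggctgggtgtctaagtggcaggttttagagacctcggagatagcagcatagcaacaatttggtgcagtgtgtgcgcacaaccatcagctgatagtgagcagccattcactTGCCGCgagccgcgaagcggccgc
Mest: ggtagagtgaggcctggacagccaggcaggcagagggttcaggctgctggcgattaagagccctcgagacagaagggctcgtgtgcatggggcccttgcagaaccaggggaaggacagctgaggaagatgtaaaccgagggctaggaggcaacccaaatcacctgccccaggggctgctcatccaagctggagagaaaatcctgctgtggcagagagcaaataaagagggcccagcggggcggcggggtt

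Plagl1 held 1 match to CACGTG and, on the other strand, 1 to TGCCGC, while Dazl and Nap1l5 held 1 TGCCGC each. Nnat, Igf2 and Mest held none of these letters in their windows. The windows also differed in CpG content. Dazl had 20 CpG sites and Plagl1 19, while Igf2 had 1. The observed number of CpG sites over that expected from the base composition was 0.71 for Dazl, 0.618 for Plagl1 and 0.064 for Igf2. Over all 253 promoter windows of the 230 hosts whose start lay in a member, the median of this ratio was 0.179, against 0.587 over 18428 windows of coding genes on these chromosomes. Their median GC content was 47.2% against 57.2%. Matches were likewise less frequent. CACGTG was in 3.56% of the windows in members and in 7.03% of all windows. TCCCGC was in 7.11% and 23.7% of them. TGCCGC was in 3.56% and 10.97%. The starts under a member thus had few CpG sites as a rule, and those of Dazl, Nnat and Plagl1 printed above were among the CpG-rich ones. These shares move with base composition, and a match describes letters only.

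Members had a median length of 7000 bp, with quartiles of 5000 and 9400 bp, and ran from 400 to 29800 bp. The next region outside the length limit had 30000 bp. Among short merged regions in coding genes, 1032 were called in 5 libraries and 2709 in 1 library only. Most members lay inside their host without reaching its ends. Of 3967 pairs of a member and a host, 233 had the start site in the member, 273 the gene's end and 2530 neither. For the other pairs the annotation used here gives no strand. Exons, introns and untranslated parts of the hosts were not analysed here. A member covered the whole of 113 hosts, which are short genes.

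Long genes held most members. The median host was 85.3 kb long, and the median coding gene without a member 16.8 kb. Of the longest decile of coding genes, 51.3% held a member, against 4.04% of the shortest decile. Per megabase of gene body the order was different. The shortest decile had 23.2 members per Mb and the longest 4.29, while deciles 3 to 9 ran between 3.31 and 4.78. An overlap of 1 bp counts, and the median gene of the shortest decile, at 1.75 kb, is shorter than the median member of 7000 bp. Such counting alone raises the value for short genes, so no higher density of the mark is read from it. The mean over all coding genes was 4.03. The bar plots of hosts by gene length show both measures.

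**Figure D1:**
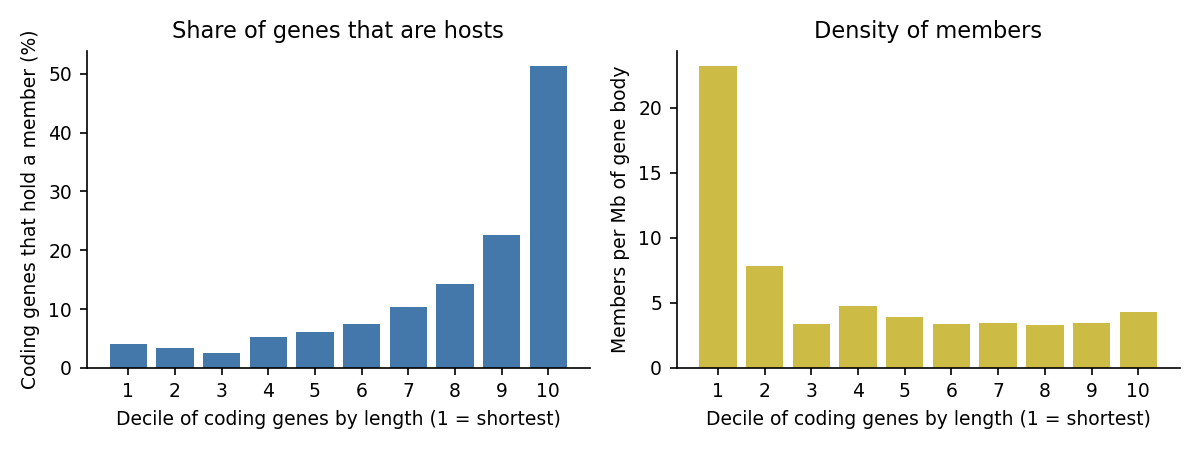
Coding genes were split into deciles by length (x axis, 1 is the shortest). Left, the percentage of genes that held a member, which was 51.3% in the longest decile. Right, members per megabase of gene body, highest at 23.2 in the shortest decile, where counting any overlap raises the value.

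Most hosts, 1702, held a single member, 363 held 2 and 328 held 3 or more. The genes with the most members were Sntg1 with 22, Pcdh15 with 21, and Nkain2 and Skint5 with 20 each. Sntg1 encodes a neuronal syntrophin of the dystrophin complex, and Pcdh15 a cadherin of hair cell tip links. Skint5, a member of an immunoglobulin-like family of skin and thymus, had the highest density of these 4 with 3.83 members per 100 kb. Pcdh15, at 1554 kb, had 1.35 per 100 kb. Dpp10, which modulates potassium channels, and Fhit, a gene in a fragile site, held 14 each. The dynein genes Dnah7c, Dnah7a and Dnah7b held 12, 9 and 8 members. They are near-identical copies, and no source used here says how reads that match several copies were placed. Hosts made up 20.2% of the coding genes of chromosome 1, the highest share, and 7.38% of those of chromosome 11, the lowest.

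Enrichment was measured per member as the log2 ratio of summed ChIP to summed input counts in the called parts, with 1 added to each, minus the library's median over the 17339 shared regions. A value of 0 is thus the typical shared region of that library. Member medians ran from -0.04 to -0.02 over the 6 libraries. On the authors' own scale, before this centring, they were 0.97, 1.05 and 1.10 in the controls and 1.22, 1.07 and 1.08 with DOX. Over the members the middle 80% of mean ratios ran from -0.49 to 0.59, against -0.46 to 0.60 for the 12599 short shared regions outside coding genes. The long shared regions had a median of 0.20. Enrichment varied little with length within the members (Spearman correlation 0.09 over members, which share their libraries).

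The highest mean ratio was in Smo, which encodes the Hedgehog signal transducer. Its member at chr6:29747001-29749400 had ratios of 2.64, 1.80 and 1.28 in the controls and 1.80, 2.42 and 1.58 with DOX. The groups overlapped. The member of Gm525 at chr11:89080801-89082200 came next with a mean of 1.68, but its 6 libraries ran from 0.57 to 2.65. Those of Parva, an actin-linked adaptor of focal adhesions, and Luzp2 were steadier, from 1.02 to 1.59 and from 1.04 to 1.42. The other members among the 8 highest were in Gm40514 (mean 1.30), Gm17266 (1.29), Peak1 (1.25), a pseudokinase, and Cntn4 (1.22), a contactin of neurons. The member of Gm40514 covered the gene's start.

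No member differed between DOX and control by limma after Benjamini-Hochberg adjustment over the 17339 shared regions. The background was the same, with 0.0% of all shared regions called. Only regions called in all 6 libraries were tested, and counts came from each library's called parts. Calls gained or lost with DOX, and changes in the called length, are therefore not seen by this test. The smallest adjusted p over the members was 0.64. At an unadjusted p under 0.05 there were 286 members, or 7.52%, against 7.02% of all shared regions. Of the 286, 115 were higher and 171 lower with DOX. That split turned to 212 of 293 higher when libraries were scaled by summed counts instead of the median, so no direction is read from it. An edgeR quasi-likelihood test with input as offset called 0 members and 17 of all shared regions, with 276 members at an unadjusted p under 0.05. The 3 DOX libraries all lay above the 3 controls in 173 members and all below in 301, together 12.5% of members, where the background over all shared regions was 12.9%. The median standard error of a difference was 0.16, and 97.2% of the estimated differences were within 0.5 either way. The plot of DOX against control ratios shows the spread.

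**Figure D2:**
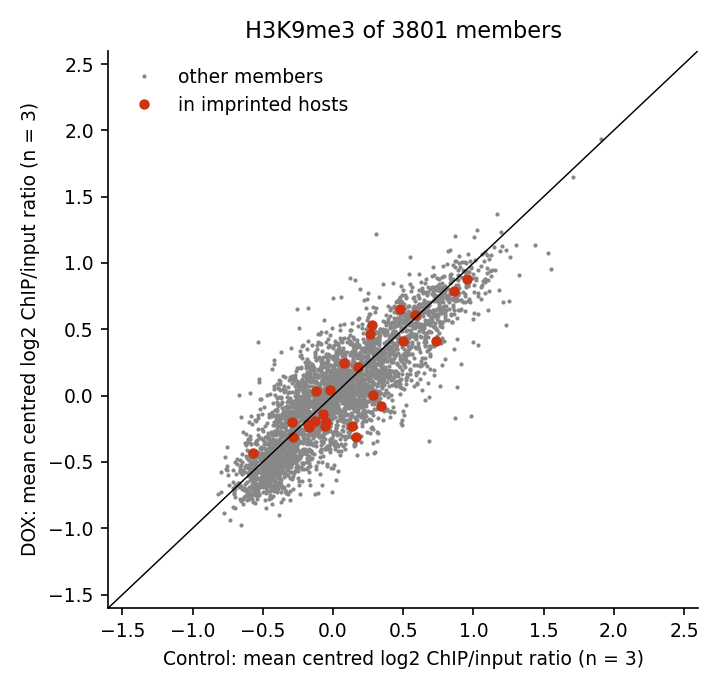
Each point is 1 of the 3801 members, with the mean centred log2 ratio of ChIP to input in the 3 control libraries (x) and the 3 DOX libraries (y); red points are members in imprinted hosts. Points follow the line of equal values, and 97.2% lie within 0.5 of it.

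The members with the smallest p-values give the scale of the largest estimates. In Magi2, a scaffold of cell junctions and synapses, the member at chr5:20469001-20475200 had 0.48, 1.14 and 0.99 in the controls and 0.03, -0.15 and -0.38 with DOX. The groups did not overlap, and the difference was -1.04 ± 0.19 (SE), with an adjusted p of 0.64 by limma. This is 1 of the 8 members that Magi2 held. In Sqor, a mitochondrial sulfide oxidase, the member at chr2:122795401-122797000 had 0.18, 0.21 and 0.52 in the controls and 1.09, 0.92 and 1.64 with DOX, a difference of 0.91 ± 0.20. The other members of this kind were in Nalcn, Wrn, Zbtb20 and Styxl1, with differences from 0.64 to 0.68, and in Capn13, Pcdh9, Arhgap24 and Focad, from -0.72 to -0.60. Wrn encodes the Werner helicase and Nalcn a sodium leak channel. All 10 had the same adjusted p of 0.64.

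Host genes were next grouped by lists of genes with known roles. Of 58 annotated imprinted genes on these chromosomes, 28 were hosts, or 48.3%, against 12.7% of all coding genes. Of 39 neuronal genes, which are mostly long, 19 were hosts. The share was 15 of 62 for germline genes, 14 of 57 for clustered protocadherins, 5 of 30 for endothelial genes and 1 of 11 for endoderm genes (Dab2). No host was among the 20 annotated pluripotency genes, 19 hematopoietic genes, 10 fibroblast genes or 10 H3K9 demethylase genes. Among 27 genes of H3K9 methylation and heterochromatin, the hosts were Atf7ip, a partner of SETDB1, and its relative Atf7ip2. These shares describe the lists and were not tested, since the members were selected by calls and long genes hold more of them.

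The 28 imprinted hosts held 25 members, of which 13 were above the median member's ratio. The most enriched was shared by Nnat and Blcap, the gene whose intron holds Nnat, and spanned chr2:157555801-157565600 over the Nnat promoter printed above. Its ratios were 0.93, 1.01 and 0.93 in the controls and 0.69, 1.11 and 0.85 with DOX. The groups overlapped, and the difference was -0.07, with a 95% interval from -0.40 to 0.25 by limma. The member of Trappc9, a subunit of a trafficking complex, had a mean ratio of 0.83 and lay inside that gene at chr15:72805001-72814200. That of Plagl1 at chr10:13087201-13095000 covered the start and had a mean of 0.59.

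At Igf2 the member at chr7:142665401-142672800 covered the start, with 0.22, 0.54 and 0.66 in the controls and 1.04, 0.32 and 0.60 with DOX. At Peg10 and Sgce, a retrotransposon-derived gene and a sarcoglycan whose starts face each other, a single member at chr6:4746001-4750400 covered the ends at which the gene bodies meet. It had 0.09, 0.28 and 0.16 in the controls and -0.12, 0.45 and 0.32 with DOX. Peg3, a zinc finger gene, and Usp29, a ubiquitin protease gene, also shared a member over their facing starts, at chr7:6726001-6733400, with a mean ratio of 0.16. In these 3 members the groups overlapped. The smallest p among imprinted members was that of Cdkn1c, a cell cycle inhibitor, with 0.30, 0.51 and 0.21 in the controls and -0.34, -0.01 and 0.12 with DOX. Its difference was -0.42 with a 95% interval from -0.78 to -0.06, and its adjusted p by limma was 0.69. Estimates over the 25 members ran from -0.47 (Impact) to 0.25 (Cdh15). The plot of imprinted members gives every library.

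**Figure D3:**
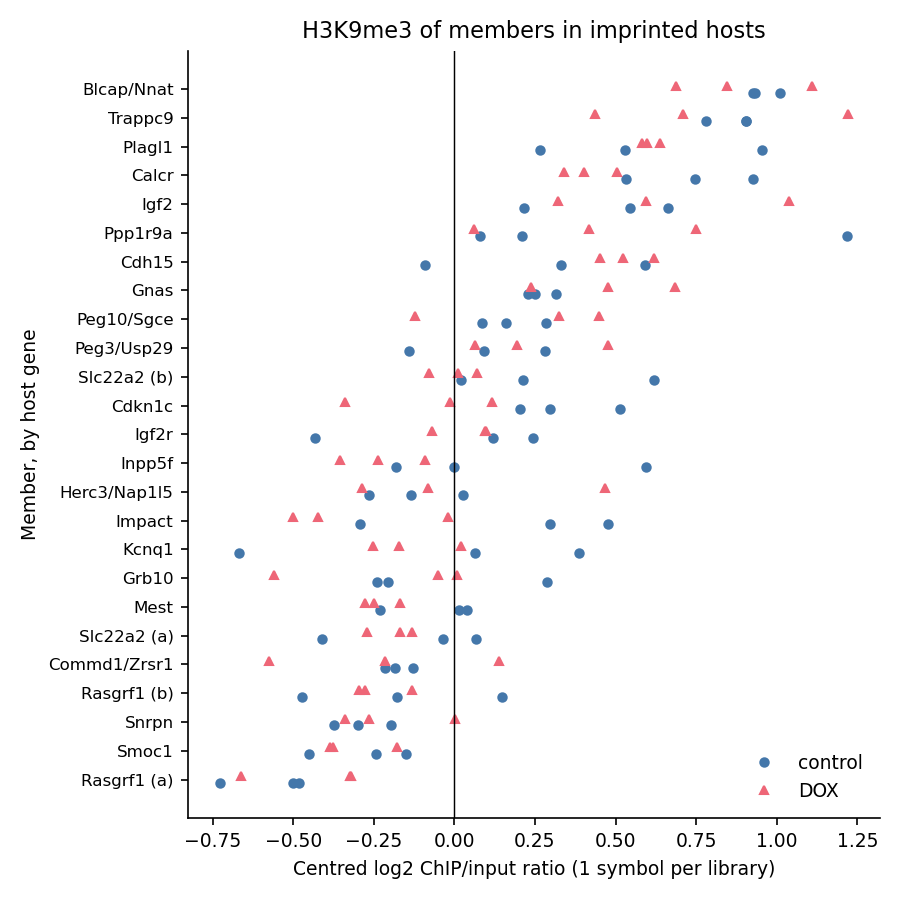
Centred log2 ratio of ChIP to input (x) of the 25 members in imprinted hosts (y, by host gene), with 1 symbol per library, circles for the 3 controls and triangles for the 3 DOX libraries. The Blcap/Nnat member is highest, at 0.69 to 1.11, and its circles (0.93 to 1.01) lie within the range of its triangles.

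The 15 germline hosts held 19 members. Those of Mei4, a factor of meiotic DNA breaks, differed among themselves. The first, at chr9:81903801-81916800, had a mean ratio of 0.80, and the others had -0.08 and -0.22. Zcwpw1, a histone reader of meiosis, had 0.62 in a member of 14.0 kb, and Dazl 0.28 in a member of 2.6 kb over its start. In Dazl the controls were 0.60, 0.40 and 0.29 and the DOX libraries -0.21, 0.23 and 0.37, which overlap. The interval of that difference ran from -0.69 to 0.10. The 14 protocadherin hosts held 5 members on chromosome 18. The Pcdha hosts and Pcdhac1 shared members, since their gene bodies overlap, and reads of their shared last exons cannot be assigned to 1 gene. Pcdhga1 overlaps none of these hosts and had a member of its own at chr18:37655801-37665400.

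The RNA of hosts was set against where the member lay. RNA counts were available for 2325 of the 2393 hosts. Levels are mean CPM over the 18 libraries and are not divided by transcript length, so genes were also split by gene length. Where the member held the start site, 46 of 194 hosts (23.7%) had at least 1 CPM. Among other hosts of known strand the share was 66.7% of 1611, and among coding genes with no member 69.2% of 15994. For genes under 20 kb the shares were 14.7%, 39.4% and 58.6%, and for longer genes 41.5%, 69.7% and 82.0%. Hosts with a marked start were thus lowest in both length classes, and other hosts of known strand lay between. The annotation gives no strand for 520 further hosts, among them Peg10, Sgce and Cdkn1c, so where their starts lie was not analysed. Of these, 61.7% had at least 1 CPM. The highest levels among hosts with strand and a marked start were those of Peg3 at 882 CPM, Mif, a cytokine gene with near-identical copies, at 553 CPM, Grb10 at 513 CPM and Mest at 498 CPM. They were picked after their values were seen, and all but Mif are imprinted. How enriched a host's members were had no visible relation to its level (Spearman correlation 0.00 over hosts). Over all hosts the highest levels were those of Peg10, Peg3, Dst (832 CPM), Tnpo1 (746 CPM), Rif1 (719 CPM) and Gnas (615 CPM). Dst encodes a linker of the cytoskeleton, Tnpo1 a nuclear import receptor and Rif1 a factor of DNA repair and replication timing.

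In iETV2 cells with DOX, 340 of 1837 tested hosts rose and 357 fell by edgeR's quasi-likelihood test (Benjamini-Hochberg adjusted p under 0.05). That is 18.5% and 19.4% of hosts, where the background over all 22025 tested genes was 13.7% and 13.3%. Coding genes with no member stood at 16.2% and 17.0%, so hosts lay near other coding genes. The median log2 change was 0.00 for hosts and 0.00 for all tested genes. In bulk RNA, fewer cells of a type and less RNA per cell cannot be told apart. Hosts with 3 or more members rose in 14.6% and fell in 23.2% of cases.

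The hosts with the largest rises were Ctse, Tek, Mmrn2, Itgb3, Rhoj and Robo2. Tek, the angiopoietin receptor of endothelium, rose from 2.03, 2.12 and 2.30 to 41.3, 41.1 and 39.8 CPM, a log2 change of 4.26 ± 0.09 (SE). Ctse, a cathepsin, rose by 4.41 ± 0.33 and Mmrn2, an endothelial matrix protein, by 3.90 ± 0.19. Itgb3, the beta chain of the platelet integrin, rose from 1.03, 0.50 and 1.24 to 10.4, 10.6 and 10.2 CPM. Rhoj, an endothelial small GTPase, and Robo2, a guidance receptor, rose by 3.33 and 3.20 on the log2 scale. In each of these the groups did not overlap, which was a condition for naming them and so is not a result. Of the 5 endothelial hosts, 4 rose (Tek, Mmrn2, Rhoj and Erg) and Flt1, a VEGF receptor, fell by 0.39 ± 0.07. For the whole endothelial list, 25 of 29 tested genes rose, and its 30 markers summed to 579 to 589 CPM without and 1162 to 1190 CPM with DOX, of which the part in these changes was not tested.

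The hosts with the largest falls were Dynlrb2, Cfap206, Dnah5, Dnah9, Dnah6 and Spag6l, which were not a list of their own. Dynlrb2, a dynein light chain, fell from 4.21, 4.29 and 4.37 to 0.02, 0.15 and 0.07 CPM, by 5.65 ± 0.37. Cfap206, a ciliary protein, fell from 21.4, 19.9 and 20.8 to 0.39, 0.43 and 0.47 CPM. The axonemal dynein heavy chains Dnah5, Dnah9 and Dnah6 fell by 4.74, 4.26 and 4.00, and Spag6l, of the central pair of the axoneme, by 3.97. Each of the 6 lies on a different chromosome, and they held 1 to 3 members each.

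Of 28 tested imprinted hosts, 7 rose and 6 fell with DOX in iETV2, with a median log2 change of 0.02. Over all tested genes 13.7% rose and 13.3% fell. Igf2 rose from 6.31, 6.72 and 7.26 to 32.6, 35.0 and 24.6 CPM, a log2 change of 2.21 ± 0.12. Peg3 rose by 0.91 ± 0.08 and Mest by 0.64 ± 0.07. Calcr, the calcitonin receptor, fell by 2.00 ± 0.15, Smoc1, a matrix protein, by 1.71 ± 0.09 and Nnat by 1.65 ± 0.24. Of 13 germline hosts 7 rose and Cpeb1, a regulator of polyadenylation, fell by 0.31 ± 0.08. Over the whole germline list 24 of 55 tested genes rose and 4 fell, with a median log2 change of 0.72 against 0.73 for the hosts. The count of hosts that rose was 4 without DOX replicate 1 and 4 without DOX replicate 2. Tex14, of the germ cell intercellular bridge, rose from 2.85, 3.09 and 2.47 to 11.2, 9.21 and 9.65 CPM. Dazl, whose start lay in a member, rose from 0.05, 0.38 and 0.68 to 1.44, 1.54 and 1.40 CPM. ChIP and RNA came from different samples. Across 3126 pairs of a member and its host, the H3K9me3 difference and the RNA change with DOX had a Spearman correlation of -0.04. The median H3K9me3 difference was -0.04 for members whose host rose and -0.01 for members whose host fell.

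In the H188A line with DOX, 35 of 1792 tested hosts rose and 24 fell by the same edgeR test. That is 1.95% and 1.34%, with a background over all genes of 2.22% and 0.801%. Coding genes with no member stood at 3.07% and 0.64%. These counts depended on single libraries. Without control replicate 3 they were 55 and 157, and without DOX replicate 3 they were 4 and 3. They were 10 and 7 without control replicate 1, 4 and 4 without control replicate 2, and 8 and 3 without DOX replicate 2. Without DOX replicate 1, 37 fell. DESeq2 called 39 that fell. Rhoj rose from 1.04, 0.40 and 0.25 to 12.5, 11.2 and 12.1 CPM, by 4.58 ± 0.34. Tspan18, a tetraspanin, rose by 1.54 ± 0.13. Igf2 rose from 2.75, 1.83 and 2.02 to 6.18, 4.27 and 4.09 CPM, by 1.20 ± 0.22, and was the 1 imprinted host of 27 tested that rose. Ajap1, Tgfb1 and Vav3 rose by 1.05, 1.15 and 0.91. Of the 5 endothelial hosts, Rhoj, Flt1 and Tek rose, and of the endothelial list 20 of 29 tested genes. Of these hosts, 1 rose without control replicate 2 and 1 without DOX replicate 3. Tek was already at 30.4, 32.2 and 31.2 CPM without DOX in this line, and went to 40.7, 40.9 and 42.9. The hosts with the largest falls were Dach1, Ddx60, Srrm4, Ptprn2, Cspg5 and Sdk2. Dach1, a developmental repressor, fell by 1.24 ± 0.24, Ddx60, an antiviral helicase, by 0.94 ± 0.20, and Srrm4, a neuronal splicing factor, by 0.74 ± 0.10. Ptprn2, Cspg5 and Sdk2, all genes of neurons, fell by 0.73, 0.73 and 0.69. Igf2, Tgfb1, Vav3, Ajap1, Dach1, Ddx60, Srrm4, Ptprn2, Cspg5 and Sdk2 lost their call without at least 1 library.

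In the libraries labelled KDM4A/4C DKO, 765 of 1679 tested hosts were higher than in their controls and 527 were lower, by edgeR at an adjusted p under 0.05. That is 45.6% and 31.4%, where the background over all 20426 tested genes was 35.6% and 33.7%. Coding genes with no member went the other way, with 32.1% higher and 44.5% lower. The median log2 change was 0.19 for hosts and -0.10 for coding genes with no member. Whether hosts and other coding genes differ in these shares was not tested. Hosts had the higher share of rises in each quartile of genes by expression. In the lowest quartile of coding genes by mean CPM, 48.1% of hosts rose against 39.3% of other coding genes, and in the highest 36.1% against 22.7%. The same held in each quartile by gene length. In the shortest quartile of genes by length 45.2% of 31 hosts rose against 24.6%, and in the longest 46.7% of 1230 against 41.6%. Lengths were not matched in the longest quartile, where the median host had 165 kb and the median other coding gene 87.7 kb. Among other coding genes the share that rose also went up with length, from 24.6% to 41.6%. Hosts with 3 or more members rose in 54.4% and fell in 21.3% of 239 cases, and hosts with a single member in 42.7% and 34.7%. Hosts of the most enriched members stood at 45.5% and 31.1%, near the shares of all hosts. As given above, Kdm4c was higher in these libraries and pluripotency and hematopoietic markers moved strongly. The part of the cell type markers in these counts was not tested.

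**Figure D4:**
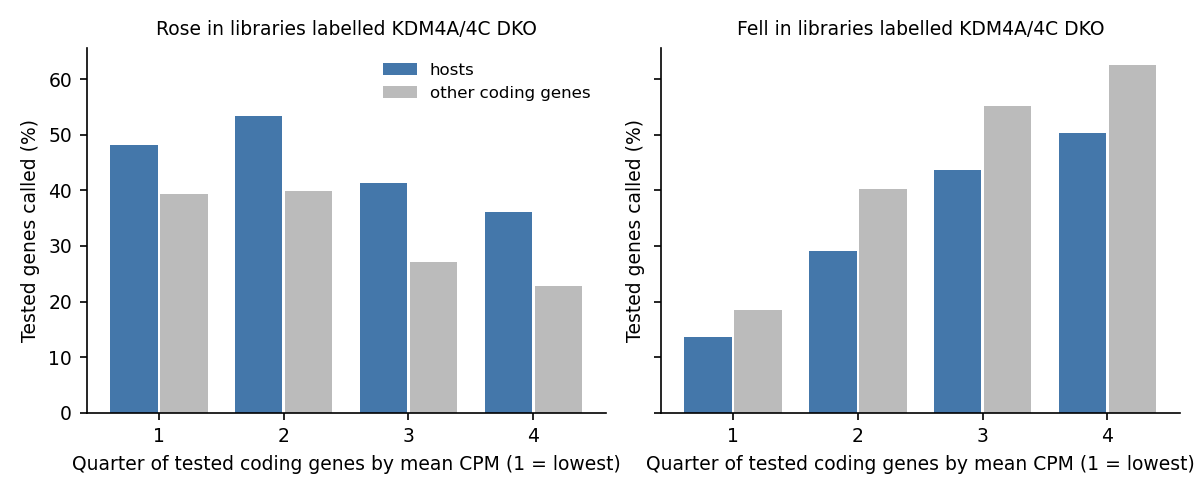
Percentage of tested genes that rose (left) or fell (right) in the 3 libraries labelled KDM4A/4C DKO against their 3 controls (y), by quartile of coding genes by mean CPM (x). Blue bars are hosts and grey bars coding genes with no member; the share of hosts that rose ran from 36.1% to 53.3%.

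Imprinted hosts were mostly lower. Of 26 tested, 16 fell and 7 rose in the libraries labelled DKO, with a median log2 change of -0.42 against 0.04 over all tested genes. Over all tested genes 33.7% fell and 35.6% rose, and of coding genes with no member 44.5% fell. Peg10 went from 3422, 3325 and 3372 to 11.3, 12.2 and 13.7 CPM, a log2 change of -8.21 ± 0.06, the lowest of all tested hosts. Its neighbour Sgce, which shares the member where their gene bodies meet, went from 22.1, 21.5 and 20.3 to 0.16, 0.58 and 0.46 CPM. Nap1l5, whose promoter is printed above, was at 0.93, 0.94 and 0.54 CPM in the controls and at 0, 0.02 and 0 CPM with the DKO label. It lies within Herc3, as Nnat does within Blcap and Zrsr1 within Commd1, and the counts of such pairs are uncertain because no source used here says whether strand was used. Igf2 fell from 294, 293 and 267 to 9.57, 11.2 and 8.84 CPM, and Mest from 1347, 1328 and 1313 to 139, 143 and 147 CPM.

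Other imprinted growth regulators fell less. Grb10, an adaptor that restrains insulin signalling, fell by 2.74 ± 0.04, Cdkn1c by 2.19 ± 0.05 and Igf2r, the receptor that clears IGF2, by 1.78 ± 0.04. Gnas, the stimulatory G protein alpha subunit, fell by 1.16 ± 0.04. Snrpn, a splicing protein of the Prader-Willi region, rose from 17.6, 19.2 and 18.2 to 50.3, 56.1 and 51.0 CPM. Calcr and Smoc1 rose by 2.30 ± 0.37 and 1.46 ± 0.13. The other 4 that rose, Zrsr1, Trappc9, Inpp5f and Ppp1r9a, did so by 0.10 to 0.25, and each lost its call without some library. The count that rose was 4 without control replicate 2, 4 without DKO replicate 1 and 4 by DESeq2. Peg3, at 1316 to 1352 CPM in the controls and 1345 to 1392 CPM in the libraries labelled DKO, overlapped between groups. It is among the 16 counted as lower, by a log2 change of -0.10 ± 0.03 after TMM scaling, but its mean CPM was higher with the DKO label, at 1362 against 1339. Its direction thus turned with the scaling, and it did not pass the test without DKO replicate 2. Over the whole imprinted list 29 of 58 tested genes fell and 19 rose.

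Germline hosts were higher. Of 14 tested, 13 rose, with Mov10l1, a piRNA helicase, as the exception, and the median log2 change was 2.49. Over all tested genes 35.6% rose. Some hosts, such as Sohlh2 and Dpep3 (0, 0 and 0.21 CPM in the controls), passed the low-count filter through the libraries labelled DKO. For these the filter favoured a rise. Without that filter 13 of 15 germline hosts rose. Sohlh2, a germ cell transcription factor, went from 0.05, 0.04 and 0.28 to 5.37, 6.02 and 6.34 CPM, by 5.32 ± 0.32. Hsf2bp, a meiotic recombination factor, rose by 4.51 ± 0.11 and Tex14 by 3.55 ± 0.10. Dmc1, the meiotic recombinase, went from 1.69, 1.75 and 2.50 to 19.5, 21.4 and 20.4 CPM. Dazl rose from 0.36, 0.18 and 0.22 to 1.99, 1.77 and 2.19 CPM. The germline list as a whole did the same, with 47 of 55 tested genes higher, so the rise is not particular to hosts. The plot of imprinted and germline hosts sets both lists side by side.

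**Figure D5:**
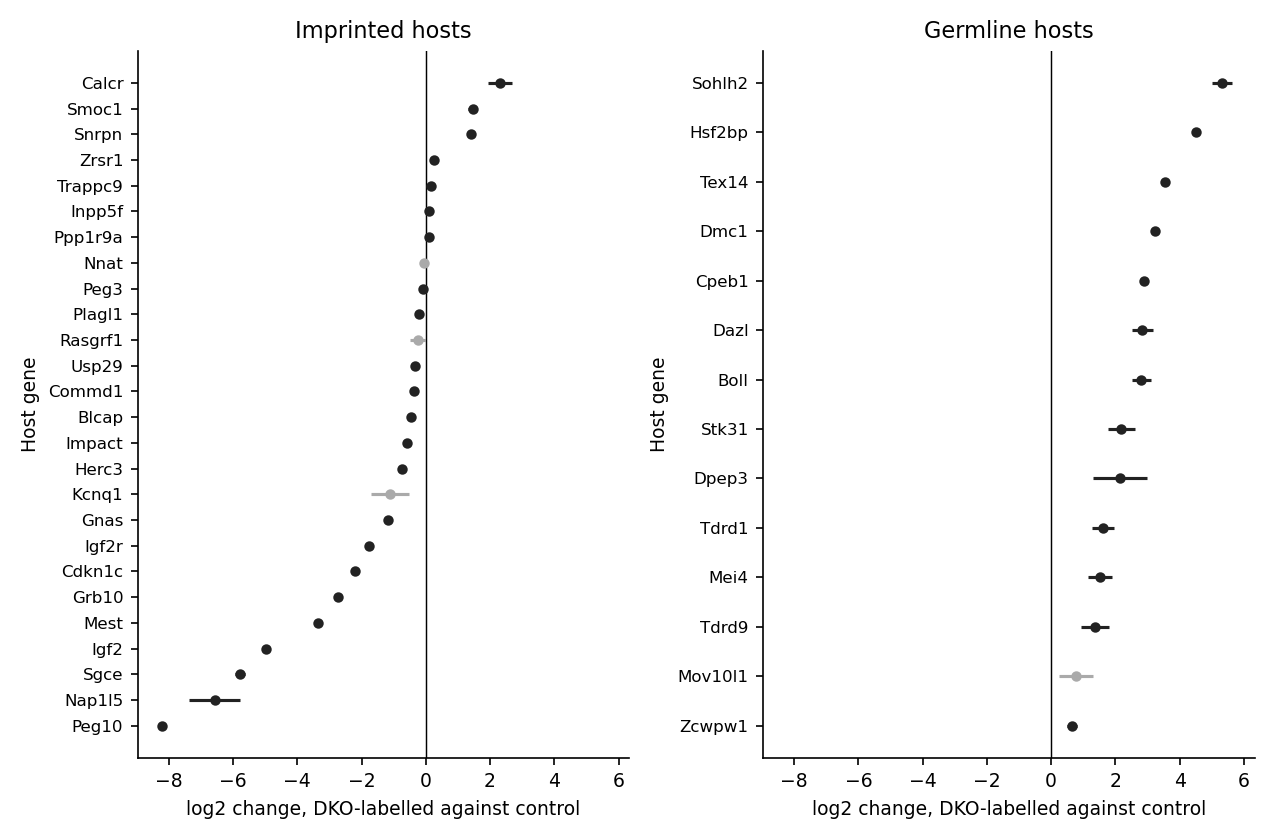
The log2 change (x, with its standard error) of imprinted hosts (left) and germline hosts (right) in the 3 libraries labelled KDM4A/4C DKO against their 3 controls; black points passed the test and grey points did not. Imprinted hosts reach -8.21 (Peg10) and germline hosts 5.32 (Sohlh2).

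All 12 tested protocadherin hosts rose, with levels from 0.42 CPM in 1 library (Pcdha2) to 8.15 CPM (Pcdhga1) in the libraries labelled DKO. Their control means ran from 0.11 CPM (Pcdha7) to 1.49 CPM (Pcdhga1). Most were thus very low in the controls and passed the low-count filter through the libraries labelled DKO, so the filter favoured a rise. Without that filter 12 of 13 rose. Over all tested genes 35.6% rose and 33.7% fell. The median log2 change was 2.39 for the tested protocadherin hosts against 0.86 for the whole protocadherin list. The counts of clustered protocadherins are uncertain because the genes overlap. Of 13 tested neuronal hosts 8 rose and 3 fell, and over the whole neuronal list 17 of 27 tested genes rose and 5 fell. Cacna1a, a calcium channel, and Ptprt, a receptor phosphatase, rose by 2.43 ± 0.07 and 2.44 ± 0.07. Dscam, a cell adhesion protein, fell by 1.76 ± 0.12. The 5 endothelial hosts all fell, by 1.20 (Mmrn2) to 4.12 (Erg), as did 27 of 28 tested genes of the endothelial list. Beside this, the summed endothelial markers stood at 1426 to 1447 CPM in the controls and 364 to 375 CPM in the libraries labelled DKO.

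Outside these lists the largest rises were in Epp13, at 0.32, 0.35 and 0.27 CPM in the controls and 16.7, 15.2 and 15.0 CPM, Cnpy1, a modulator of FGF signalling (4.87 ± 0.12 on the log2 scale), 2410141K09Rik (4.84 ± 0.12), Morc1, a germ cell ATPase that silences transposons (4.73 ± 0.15), and Gm17067 (4.69 ± 0.08). Groups did not overlap in any of these 5, which the naming rule required. The largest falls were in Prkar2b, a regulatory subunit of protein kinase A, from 169, 176 and 180 to 7.24, 8.19 and 7.49 CPM, Tspan18 (-4.52 ± 0.08) and Reln, a matrix protein that guides neurons (-4.28 ± 0.05). Of the most highly expressed hosts, Dst rose by 1.50 ± 0.04 and Rif1 by 0.78 ± 0.03, while Tnpo1 fell by 0.32 ± 0.04.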

How the data were processed

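H3K9me3 regions were deposited per library with log2 fold over input, a score, a p-value and an FDR, per the file headers. The deposited RNA values are raw counts per gene. The submitters' processing notes name STAR 2.7.10b, featureCounts 2.0.6 and HTSeq 2.0.3 with GRCm38 and mm10. No source used here says which counter made these counts or whether strand was used.

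ChIP and input counts were summed in the called parts of each merged region and compared with limma 3.58.1 (R 4.3.3), with 95% intervals from its moderated fit. RNA was tested per experiment with edgeR 4.0.16 (TMM, filterByExpr), and DESeq2 1.42.0 was an alternative. All tests were two-sided, with Benjamini-Hochberg adjustment at 0.05. CPM is counts per 1000000 counts of the library. Intervals and depth cover these libraries only.

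Named regions were the 8 most enriched members, the 5 per direction with the smallest p, members in listed hosts and, of the genes with 3 or more members, those with the most. Named hosts were per comparison the 6 per direction with the largest change (adjusted p under 0.05, average log2 CPM of at least 1, groups apart), the 6 with the highest CPM and listed hosts. The members and lists were chosen with earlier results of these data known. Of the hosts that this rule names, 1 is not reported here.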

Additional observations from a re-analysis of the deposited data

Results flagged for a closer look

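For the named hosts below the log2 change with DOX differed between the H188A and the iETV2 line, by an edgeR quasi-likelihood test of the interaction over 12 libraries (Benjamini-Hochberg adjusted p under 0.05). Each value below is the change in the H188A line minus that in iETV2. The lines and their experiments cannot be told apart, and no explanation was tested.

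Among imprinted hosts the difference was 1.83 for Calcr, 1.52 for Smoc1, 0.84 for Snrpn and 0.55 for Grb10. It was below 0 for Peg3 (-1.08), Igf2 (-0.996), Usp29 (-0.88), Mest (-0.56) and Impact (-0.37). Among germline hosts it was -2.34 for Dazl, -1.92 for Tex14, -1.65 for Stk31, -1.36 for Hsf2bp and -1.29 for Mov10l1. It was -1.25 for Tdrd1, -1.06 for Sohlh2, -1.02 for Mei4 and 0.51 for Cpeb1. All of these germline hosts had a higher mean without DOX in the H188A line than in iETV2. The means were 7.45 against 0.37 CPM for Dazl, 23.7 against 2.80 for Tex14 and 28.4 against 2.40 for Hsf2bp. Mei4 (2.09 against 1.64 CPM) and Cpeb1 (21.6 against 18.5 CPM) were closer.

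Endothelial hosts were split, with -3.87 for Mmrn2, -3.79 for Tek, 1.28 for Rhoj and 1.20 for Flt1. Tek stood at 30.4 to 32.2 CPM without DOX in the H188A line and at 2.03 to 2.30 CPM in iETV2. The neuronal hosts Cntnap2 and Map2 had 1.33 and 0.81, and the protocadherin Pcdhga1 had -0.50.

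The highest values were among the hosts that fell most in iETV2. They were 6.01 for Dynlrb2, 5.21 for Cfap206, 3.77 for Spag6l, 3.51 for Dnah5 and 3.46 for Dnah6. Dnah9, also among the largest falls, had 2.42 and did not pass (adjusted p of 0.12 by the same edgeR test). Without DOX these hosts were already low in the H188A line. Dynlrb2 was at 0.25, 0.02 and 0 CPM there, too low to be tested, and the controls of Cfap206, Spag6l, Dnah5 and Dnah6 ran from 0.59 to 5.08 CPM, against 11.3 to 27.3 CPM in iETV2. Mmrn2 and Robo2, by contrast, stood higher without DOX in the H188A line, with means of 14.0 and 9.84 CPM against 0.68 and 1.88 CPM. So did Morc1, at 51.8 against 3.50 CPM, and 2410141K09Rik, at 60.1 against 6.73 CPM. Reln and Dach1 stood lower there, at 9.97 against 20.8 CPM and 7.60 against 16.5 CPM. The others were Ctse (-4.07), Robo2 (-3.70), Itgb3 (-3.38), Morc1 (-1.81), 2410141K09Rik (-1.62), Sdk2 (-1.50), Gm17067 (-1.25), Reln (-1.21), Dach1 (-1.15), Ddx60 (-0.98), Srrm4 (-0.92), Epp13 (-0.91) and Ptprn2 (-0.86).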

How the results depend on the processing

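The members numbered 3655 with a limit of 20 kb and 2950 with 10 kb, 3673 at an FDR of 0.01 and 3853 to 4052 without 1 library each. Only 2092 members in 1465 hosts were called over at least 50% of their length in each library. The counts that moved most were those of the H188A line. Without the low-count filter 93 hosts rose and 154 fell, and the all-gene median went from -0.01 to -0.96 (-0.11 with DESeq2). DESeq2 called 46 and 39. Leaving out 1 library each gave 4 to 55 that rose and 3 to 157 that fell. The cause was not tested. In iETV2 the same gave 238 to 365 and 301 to 411, and with the DKO label 717 to 785 and 500 to 528. Equal replicate numbers matched best for some replicates and not for others. In iETV2 the deviations of equal numbers correlated at -0.01, 0.32 and 0.56. The highest correlations with another number were 0.07, 0.45 and -0.27. In the H188A line equal numbers gave -0.21, 0.15 and 0.35, and the highest with another number were 0.49, -0.07 and 0.22. Whether the libraries are paired is thus not settled. With a replicate block 16 hosts rose and 8 fell in the H188A line. In iETV2 the block gave 470 and 457, and with the DKO label 758 and 525. Over 68 changes of named hosts, none turned in sign under these alternatives, and 18 fell short of the threshold under at least 1. The scaling of ChIP libraries by the authors' constant, chosen after seeing the data, put 189 of 244 members at an unadjusted p under 0.05 on the higher side. With 3 libraries a group and a median SE of 0.16, small H3K9me3 differences could not be detected. The 3 DOX libraries, whose titles differ, were taken as 1 group by the treatment label. The part of this in the spread was not tested.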
